A study of Homo sapiens with 4 samples.

Results

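The loci of 10 genes for enzymes that write or remove methyl groups on lysine 4 of histone H3 (H3K4), and for proteins that bind 2 of those enzymes, were examined in a list of H3K4me1 peaks from HepG2 cells. A locus was the gene's span on hg19 with 20 kb added on each side, and every distinct peak that overlapped it by 1 bp was a member. The 10 loci covered 1.465 Mb and held 101 of the 160601 distinct peaks in the list. HepG2 is an established line from a human liver tumour, grown here in medium with 25 mM glucose and 10% serum. One culture group received siRNA against LSD2, the product of KDM1B, and the other the control siRNA, which the peak list names GL3, the luciferase sequence often used as a control target. Chromatin of each group was immunoprecipitated with an antibody to H3K4me1, and an input library was made from each, which gives 4 libraries in 4 groups of 1. Each peak marks a region where reads of the LSD2-knockdown H3K4me1 library exceeded those of the control H3K4me1 library, and the inputs are not named in the call. With 1 library per group there are no replicates, and the conditions were not tested against each other. The number of reads behind the peaks is unknown, and how far LSD2 was depleted was not measured in the data used here. The list carries no height, fold or p-value per peak, and it holds only gains, so a locus with many peaks is a locus with many called gains and not one with a known net change.

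Methyl groups on H3K4 are added by SET-domain methyltransferases and taken off by demethylases of the flavin-dependent LSD class or the iron-dependent JmjC class. A single methyl group marks enhancers and the shoulders of active promoters, while the trimethylated form sits on the start site itself. LSD2 removes the mono- and dimethyl forms, has been found over the bodies of transcribed genes, and works with GLYR1 (also called NPAC), a nucleosome-binding cofactor. The genes are taken below as demethylases (KDM1B, KDM1A, KDM5A, KDM5B), methyltransferases (KMT2A, KMT2C, SETD7) and partner proteins (GLYR1, NSD3, RCOR1). RCOR1, the scaffold CoREST, is best known as the partner of LSD1 and not of LSD2.

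The bases just upstream of 4 of the genes are shown first, since the distance of peaks from the 5′ ends of the spans is described below. No peak covered any of the 10 ends, where 1.92% of positions taken every 1 kb along the same chromosomes lay in a peak, so this count says little by itself. KDM1B is the target of the siRNA, GLYR1 encodes the cofactor of LSD2 and had the longest peak-free stretch on the inner side of its 5′ end, and KMT2C and SETD7 had the most and the fewest CpG sites of the 9 members matched in the promoter table. Each sequence is the 250 bases before the RefSeq gene start on GRCh38.p14, written 5′ to 3′ on the gene's strand with every CG dinucleotide in capitals: KDM1B from chr6:18155172-18155421 (plus strand), GLYR1 from chr16:4847289-4847538 (minus), KMT2C from chr7:152436004-152436253 (minus) and SETD7 from chr4:139556220-139556469 (minus).
KDM1B: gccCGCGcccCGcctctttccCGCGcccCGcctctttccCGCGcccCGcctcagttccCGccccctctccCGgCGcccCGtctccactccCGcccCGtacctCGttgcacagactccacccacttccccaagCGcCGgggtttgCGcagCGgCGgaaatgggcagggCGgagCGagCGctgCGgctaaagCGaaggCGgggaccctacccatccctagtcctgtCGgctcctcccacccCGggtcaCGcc
GLYR1: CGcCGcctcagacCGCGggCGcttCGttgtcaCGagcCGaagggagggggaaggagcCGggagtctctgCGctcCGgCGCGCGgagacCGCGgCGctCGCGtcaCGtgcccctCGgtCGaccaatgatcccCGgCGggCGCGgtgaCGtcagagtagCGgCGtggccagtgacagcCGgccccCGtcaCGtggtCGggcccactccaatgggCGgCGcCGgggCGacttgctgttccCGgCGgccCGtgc
KMT2C: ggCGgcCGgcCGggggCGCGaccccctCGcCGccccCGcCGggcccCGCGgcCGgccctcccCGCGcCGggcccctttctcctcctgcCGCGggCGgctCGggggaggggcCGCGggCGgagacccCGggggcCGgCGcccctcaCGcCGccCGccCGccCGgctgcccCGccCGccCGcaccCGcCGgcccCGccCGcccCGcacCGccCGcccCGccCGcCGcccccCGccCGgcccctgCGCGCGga
SETD7: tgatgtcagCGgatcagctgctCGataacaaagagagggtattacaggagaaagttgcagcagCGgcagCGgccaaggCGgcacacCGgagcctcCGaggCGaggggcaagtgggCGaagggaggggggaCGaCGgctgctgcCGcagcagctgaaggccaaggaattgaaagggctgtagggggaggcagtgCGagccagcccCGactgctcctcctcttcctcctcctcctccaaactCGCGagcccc
These positions belong to another build than the peaks and were not set against them. The KDM1B stretch held 30 CG dinucleotides, a number reached by 12.4% of the 35116 promoters in the table. GLYR1 held 40 (reached by 2.16% of promoters), KMT2C 48 (0.262%) and SETD7 16 (40.96%). The other 5 matched members held between 18 (KDM5A) and 31 (KMT2A), so all 9 lay above the median promoter, which held 11. NSD3 was not matched. CG reads the same on both strands, so 1 search covers both, and a CG in these letters says nothing about its methylation in these cells.

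**Figure D1:**
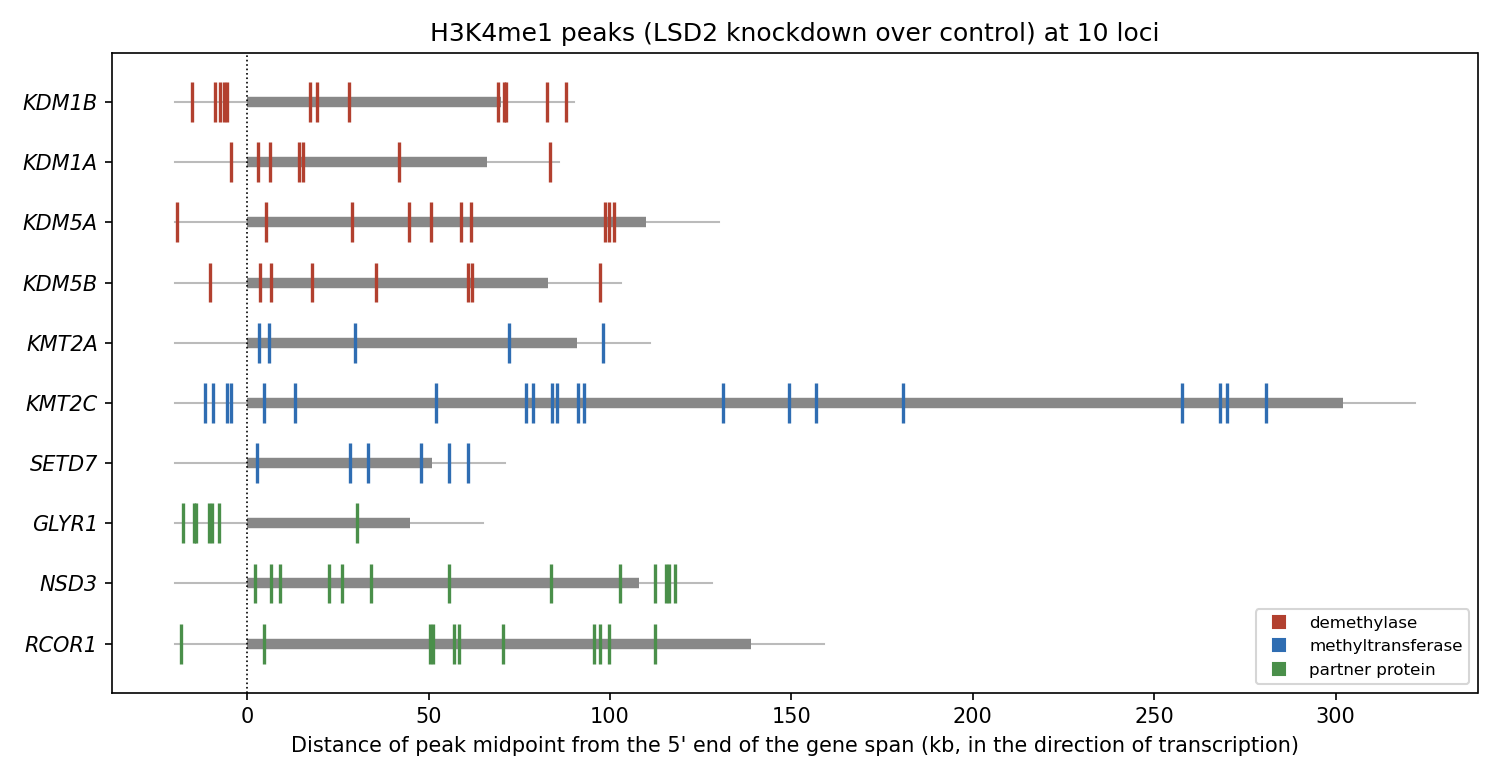
Peaks at the 10 loci, drawn by distance of the peak midpoint from the 5′ end of the gene span (kb, positive in the direction of transcription). Thick grey bars are gene spans, thin lines the 20 kb on each side, and each coloured tick 1 peak; KMT2C holds 21 ticks and KMT2A 5, and in no row does a tick stand on the dotted line at 0.

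Every locus held at least 5 peaks. Together they held 68.9 peaks per Mb (exact 95% Poisson interval 56.2 to 83.8), against 80.8 peaks in all if each had had the density of its own chromosome. The ratio to the chromosomes was 1.25 (1.02 to 1.52). Its lower bound fell to 0.970 without KDM1B, to 0.967 without NSD3 and to 0.999 without RCOR1. These intervals and those below take each peak as an independent count and hold no error between libraries. Peaks often stood close together, as described below, so the intervals may be too narrow. Single loci had a median of 66.0 peaks per Mb (SD over loci 21.1). In 9 of the 10 loci the density was above that of the chromosome, KMT2A being the exception, where 46.4% of windows of the same lengths lay above their chromosome. No single locus had an interval that left out its chromosome's density. The pooled density of the extended spans thus lay above that of the chromosomes, but its lower bound rested on single loci. All of it rested on 1 pair of libraries. For the spans alone the ratio was 1.18, and no interval was computed for it.

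In order of density, KDM1B came first with 118 peaks per Mb (62.9 to 202). It was followed by NSD3 (87.8, 46.8 to 150), GLYR1 (82.4, 33.1 to 170), KDM5A (66.7, 31.97 to 123) and KDM1A (66.0, 26.6 to 136). Next came SETD7 (65.9, 24.2 to 144), KDM5B (65.0, 28.1 to 128.2), RCOR1 (61.5, 30.7 to 110) and KMT2C (61.4, 38.0 to 93.9), and KMT2A was last with 38.2 (12.4 to 89.1). The intervals of neighbours in this order overlapped. Those of the first and the last did too, which does not show that these 2 were alike, and no pair was tested. By role, the 4 demethylase loci held 77.7 peaks per Mb (55.0 to 107), the 3 partner loci 75.2 (51.1 to 107) and the 3 methyltransferase loci 56.7 (38.8 to 80.1), and these intervals overlapped as well.

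**Figure D2:**
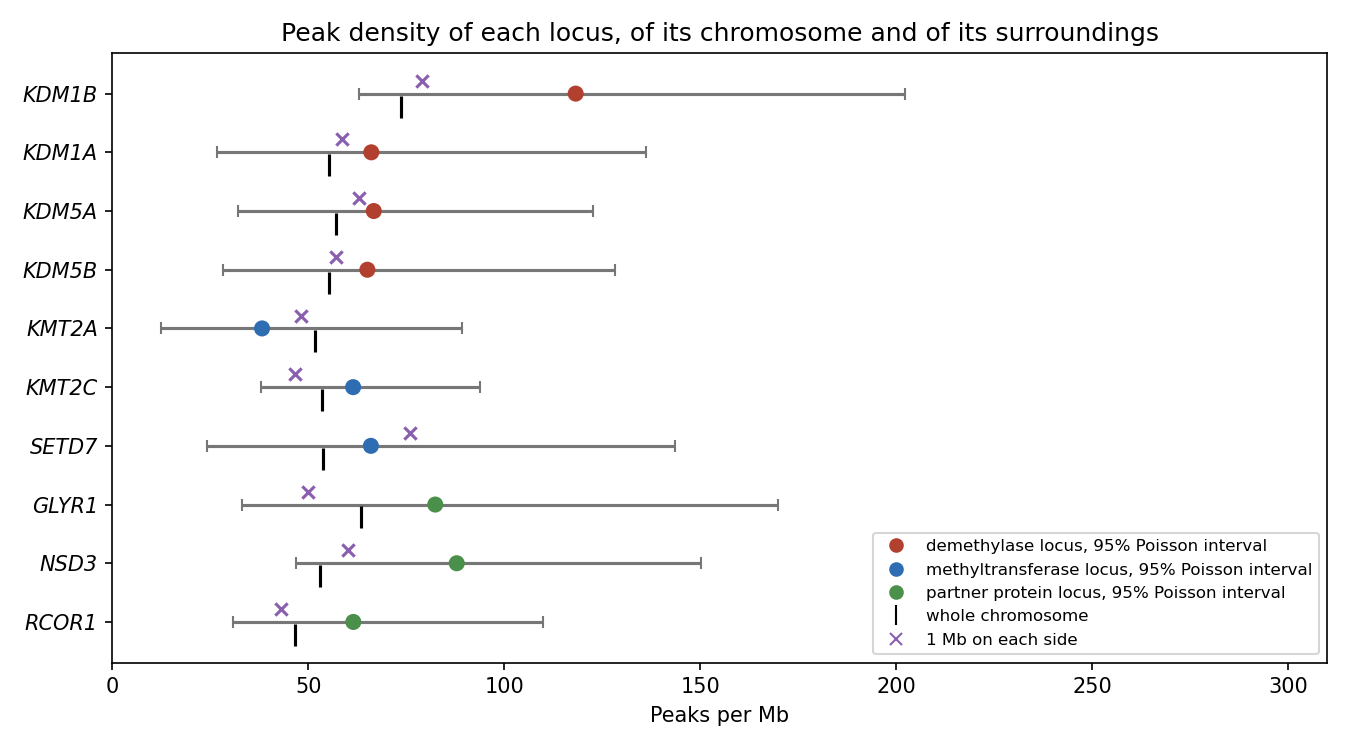
Peak density of each locus (dots, peaks per Mb, with exact 95% Poisson intervals), of its whole chromosome (bars) and of the 1 Mb on each side (crosses; for KDM5A cut short at the first peak of chromosome 12). All intervals overlap each other; KDM1B lies highest at 118 and KMT2A lowest at 38.2, below both of its backgrounds.

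KDM1B, which encodes LSD2 and is the gene the siRNA targets, had 13 peaks in 110 kb of chromosome 6. Of windows of that length along the chromosome, 13.6% held as many or more. Its density of 118 peaks per Mb compares with 73.6 on the chromosome and with 79.0 (67.2 to 92.3) in the 1 Mb on each side. Most of these peaks lay outside the gene. The span held 4 peaks (57.1 per Mb, interval 15.6 to 146) and the flanks 9 (225 per Mb, 103 to 427), the highest flank density of the 10 loci. Upstream, on the side of TPMT, 5 peaks stood between 15.1 and 5.61 kb from the 5′ end. They included the widest peak of all 10 loci, 971 bp at chr6:18148263-18149233, which a gap of 39 bp separated from a peak of 243 bp. Inside the span, 3 peaks lay 17.4, 19.4 and 28.0 kb from the 5′ end, and then none followed for 40.8 kb. A second group sat at the 3′ end, on the side of DEK, where a peak of 323 bp just inside the span was followed by peaks of 392 and 260 bp just outside it. In KDM1B the peaks thus stood mostly around the gene's ends, although the intervals of span and flanks overlapped. Without the added flanks KDM1B was no longer the densest member, and NSD3 (83.3 peaks per Mb) took its place.

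KDM1A encodes LSD1, the closest relative of LSD2, which removes the same methyl groups within the CoREST complex. It held 7 peaks in 106 kb of chromosome 1, a number reached by 37.1% of windows. Of these, 5 lay in the span, at 3.13, 6.25, 14.3, 15.4 and 41.8 kb from the 5′ end, and 1 in each flank. The part of the span nearest the 5′ end (of 3 equal parts) held 4 of the 5, while KDM1B held 2 of 4 in that part. After the peak at 41.8 kb, no other followed for 41.4 kb. KDM1A peaks were wide for these loci, with a median of 397 bp and a largest of 447 bp at chr1:23347903-23348349.

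KDM5A and KDM5B are JmjC demethylases that act on the tri- and dimethyl forms. KDM5A held 10 peaks in 150 kb of chromosome 12 (35.7% of windows held as many), and all but 1 of them lay in the span. They formed a trio 98.7 to 101 kb from the 5′ end, near the 3′ end, and a looser group between 44.5 and 61.6 kb. Its only flank peak stood 19.3 kb upstream and was its widest, 473 bp. KDM5B held 8 peaks in 123 kb of chromosome 1 (37.5% of windows), 6 of them in the span at distances from 3.52 to 61.9 kb. Its widest peak, 545 bp, stood 10.3 kb upstream of the 5′ end. Both genes were near their chromosomes in density, at 1.17 and 1.18 times.

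KMT2A, the methyltransferase MLL1 that keeps HOX genes active, was the sparsest member. It held 5 peaks in 131 kb of chromosome 11, where 70.9% of windows held as many or more. Of these, 4 lay in the span, at 3.27, 5.98, 29.8 and 72.2 kb. The 5 peaks of the locus also had the lowest median width of any member, 215 bp, and 2 of the 5 measured 166 bp. The narrowest peak of the whole list measured 145 bp. The widest, 495 bp at chr11:118310020-118310514, was the one closest to the 5′ end. Upstream of KMT2A the nearest peak was 71.9 kb away, the longest such distance among the 10.

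KMT2C, or MLL3, is one of the enzymes that place the single methyl group at enhancers, the mark measured here. Its locus is the longest, 342 kb of chromosome 7, and held 21 peaks, a number reached by 34.9% of windows. Of the 17 peaks in the span, 6 lay together between 76.9 and 92.8 kb from the 5′ end and included the 3 widest of the gene, of 591, 679 and 767 bp. The widest was at chr7:152049450-152050216. A further 4 peaks stood 4.52 to 11.7 kb upstream, which made KMT2C 1 of the 2 loci with a peak within 5 kb on both sides of its 5′ end, KDM1A being the other. In the other direction a stretch of 76.4 kb, from 151876599 to 151952955, held no peak, the longest inside any of the loci. Parts of KMT2C have near-identical copies elsewhere in the genome, and how reads with several possible places were treated is not given in the sources used here.

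SETD7 is a SET-domain enzyme that adds a single methyl group to H3K4 and to several proteins other than histones. Its locus of 91 kb on chromosome 4 held 6 peaks (35.5% of windows held as many), at 65.9 per Mb against 53.7 on the chromosome and 76.0 (64.4 to 89.1) in the 1 Mb on each side. With KMT2A it was 1 of the 2 loci that were sparser than their surroundings. Its widest peak, 404 bp at chr4:140474937-140475340, was also the closest to its 5′ end, at 2.86 kb. The next followed after 25.0 kb.

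GLYR1 is the cofactor that binds LSD2 on nucleosomes and raises its activity. It showed the most one-sided arrangement. Of the 7 peaks in its 85 kb on chromosome 16 (31.4% of windows held as many), 6 lay upstream of the gene, on the side of UBN1, between 7.85 and 17.5 kb from the 5′ end. The span held 1 peak, of 287 bp at 30.4 kb, and the 20 kb beyond the 3′ end, on the side of ROGDI, held none. The density of the GLYR1 span alone was 22.2 peaks per Mb (0.563 to 124), the lowest of the 10, against 150 (55.0 to 326) in its flanks, and these intervals overlapped. The widest, 585 bp at chr16:4912389-4912973, lay 34 bp from its neighbour. GLYR1 and KDM1B were the 2 loci of the 10 whose nearest peak to the 5′ end lay upstream.

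NSD3 is a methyltransferase for lysine 36 of histone H3 that has been found in complexes with LSD2. It held 13 peaks in 148 kb of chromosome 8, a number reached by 15.1% of windows, and had the largest ratio to its chromosome, 1.66 (0.885 to 2.84). Its span held 9 peaks, 6 of them in the part nearest the 5′ end, from 2.29 to 34.2 kb. All 4 peaks in its flanks lay past the 3′ end, on the side of DDHD2, 112 to 118 kb from the 5′ end, with widths from 387 to 574 bp. DDHD2 overlaps NSD3 on the later build, and whether these peaks lie within DDHD2 was not examined. Upstream the next peak was 48.9 kb away. The median width of NSD3 peaks was 390 bp.

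RCOR1 held 11 peaks in 179 kb of chromosome 14 (30.1% of windows held as many), 10 of them in the span. Only 1 of those, at 4.65 kb, lay in the part nearest the 5′ end. The others ran from 50.4 to 112 kb, in close pairs at 50.4 and 51.2, 57.0 and 58.3, and 95.6 and 97.4 kb. RCOR1 lies in the distal part of chromosome 14, which is poor in peaks. From 44 Mb, taken as the start of this sparse stretch, to its end the chromosome had 28.8 peaks per Mb (27.5 to 30.2). Long peak-free gaps were not left out of that length. The locus stood at 61.5 (30.7 to 110), 2.13 times as dense. The stretch was picked as sparse in this same list, so its low density is no independent background. The 1 Mb on each side of the locus had 43.0 (34.4 to 53.1), so the interval of RCOR1 reached below the density of its own surroundings.

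The 5′ ends differed in how far the nearest peak stood from them. To the nearest peak edge the distance was 2.03 kb in NSD3, 2.66 in SETD7, 2.90 in KDM1A, 3.02 in KMT2A, 3.41 in KDM5B, 4.32 in KMT2C, 4.49 in RCOR1, 5.10 in KDM5A, 5.49 in KDM1B and 7.75 in GLYR1. In 8 of 10 loci the nearest peak lay downstream, inside the gene, at no more than 5.10 kb. None of the 10 had a peak within 2 kb, where 21.1% of positions taken every 1 kb along the same chromosomes did. Within 5 kb 7 of 10 did, against 41.8% of positions, and within 10 kb all 10 did, against 63.6%. At the 3′ ends the counts were 1, 3 and 5 of 10 for the same distances, with a median distance of 11.4 kb against 3.87 kb at the 5′ ends and 6.58 kb for the positions. The spans are given in steps of 1 kb, with the direction of rounding not stated, and were not set against an hg19 annotation. With each 5′ end moved 1 kb into the gene, 3 of 10 had a peak within 2 kb, none within 1 kb, 8 within 5 kb and 10 within 10 kb, so the empty 2 kb is not settled at this resolution. Whether other genes show the same arrangement was not tested.

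**Figure D3:**
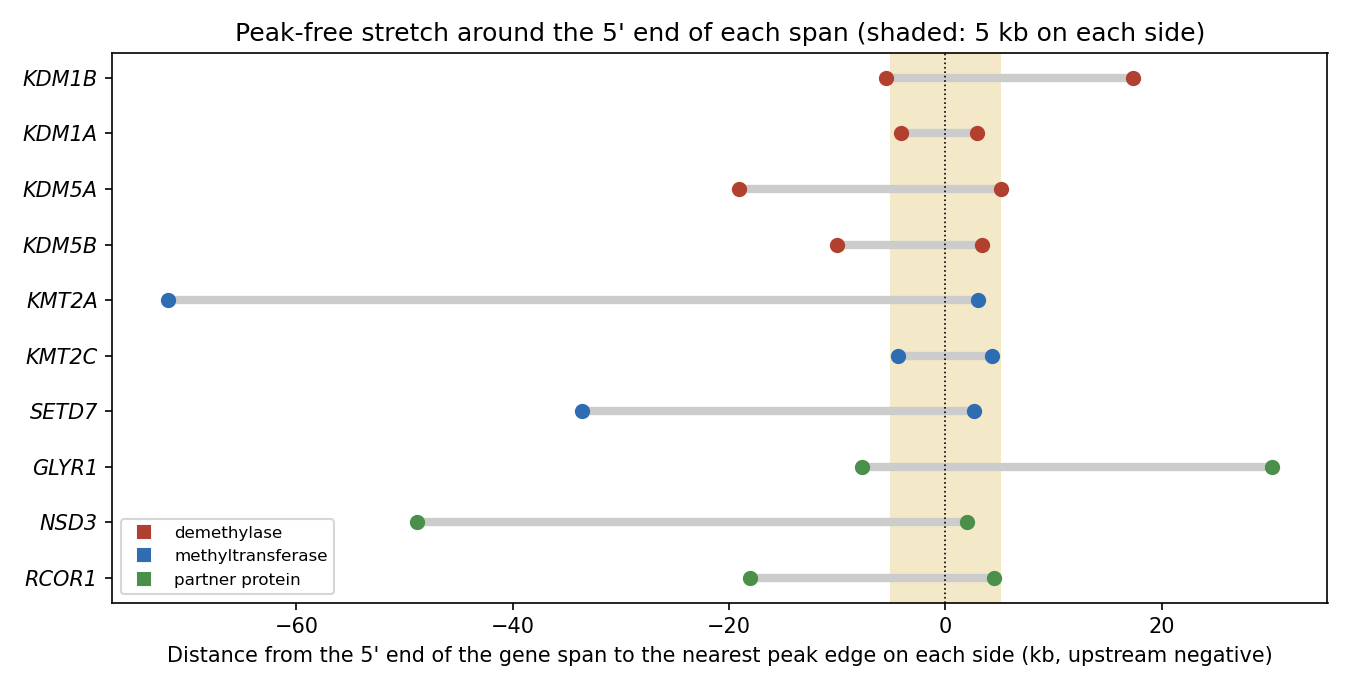
Distance in kb from the 5′ end of each span to the edge of the nearest peak upstream (left) and downstream (right), with the peak-free stretch between them in grey and 5 kb on each side shaded. The stretches run from 7.03 kb in KDM1A to 74.9 kb in KMT2A, and all but those of KDM1B and GLYR1 end closer to the 5′ end on the right.

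Within the spans, 31 of 69 peaks lay in the part nearest the 5′ end when each span was divided into 3 equal parts, which is 44.9% (95% Wilson interval 33.8 to 56.6%) where an even spread gives 33.3%. The middle and last parts held 19 each. KMT2C alone gave 9 of the 31, and without it the share was 42.3% (29.9 to 55.8%), without KDM1A 42.2% (30.9 to 54.4%) and without NSD3 41.7% (30.1 to 54.3%), with intervals that include an even spread. Spans and flanks as a whole did not separate. The spans had 64.8 peaks per Mb (50.4 to 82.0) and the flanks 80.0 (54.7 to 113), a ratio of 0.810 (0.525 to 1.27). KDM1B gave 9 of the 32 flank peaks, and without it the ratio was 1.02. The upstream flanks held 19 peaks, of which KDM1B, GLYR1 and KMT2C gave 5, 6 and 4, and KMT2A, SETD7 and NSD3 gave none. The downstream flanks held 13.

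Peak widths at the loci ran from 161 to 971 bp, with a median of 333 bp and quartiles of 266 and 401 bp. The whole list had a median of 316 bp and quartiles of 229 and 396 bp. Of the 101 peaks, 58 (57.4%, Wilson interval 47.7 to 66.6%) were at or above the list's median, against 50.1% of the list. Over all 10 loci the widths thus did not stand apart from the list beyond counting error, but this rested on KMT2C. Without KMT2C the share was 62.5% (51.5 to 72.3%), an interval that leaves out the list's share. Without KDM1A it was 55.3% (45.3 to 65.0%), and without KDM1B or NSD3 55.7% (45.3 to 65.6%), with intervals that include it. The median was above that of the list in 7 of the 10 loci, with KDM1A (397 bp) and NSD3 (390 bp) highest, and below it in KMT2A (215 bp), KMT2C (284 bp) and KDM5B (305.5 bp). No peak of these loci reached 1 kb. Peaks covered 35.4 kb in all, from 1.06% of the KMT2A locus to 4.81% of the KDM1B locus.

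**Figure D4:**
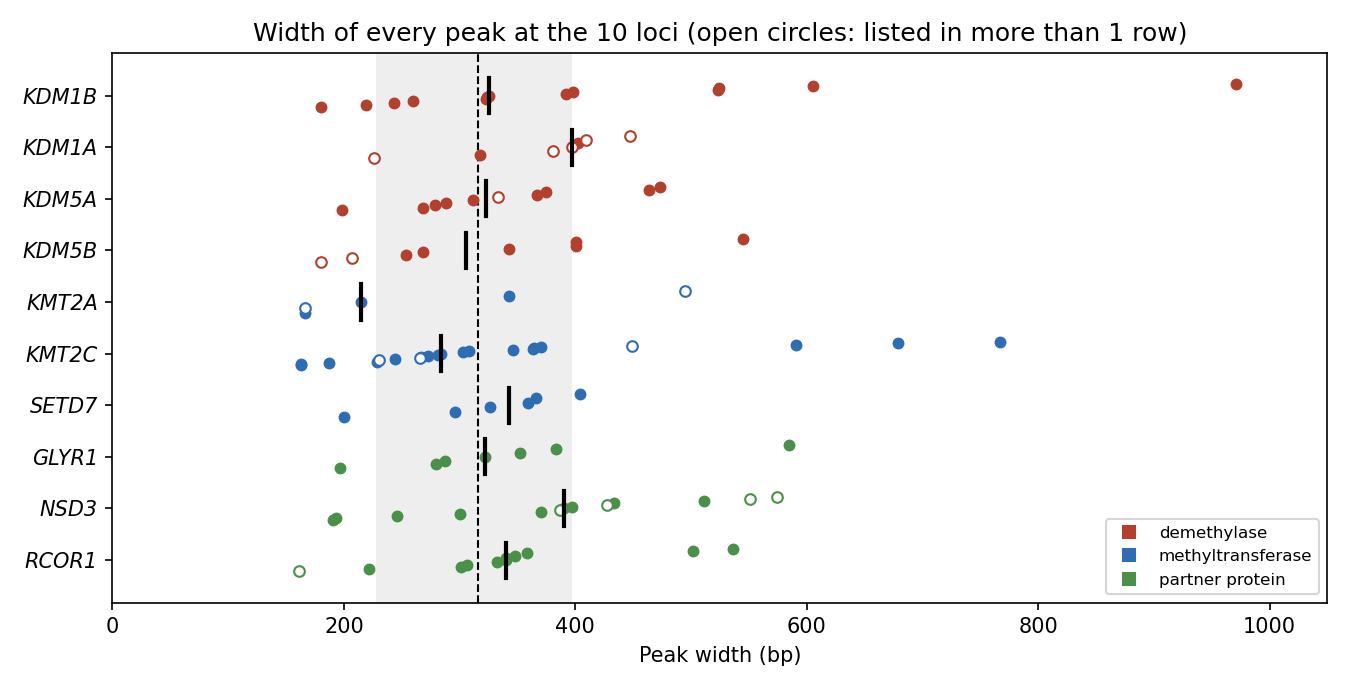
Width in bp of every peak at the 10 loci, with the median of each locus as a black bar, and the median (dashed line, 316 bp) and quartiles (grey band) of the whole list. Open circles are peaks listed in more than 1 row; the widest point, 971 bp, belongs to KDM1B.

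Peaks of these loci often stood close together. Another peak lay within 5 kb of 64 of the 101, or 63.4% (Wilson interval 53.6 to 72.1%), against 52.2% of the whole list. KDM1B (11 of 13) and GLYR1 (6 of 7) had the most such peaks for their number, and KMT2A (2 of 5) the fewest. Without KDM1B the share was 60.2% (49.8 to 69.8%), an interval that includes the share of the list.

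The deposited list gives some peaks in several rows, and each was counted once here. At these loci 18 of 101 peaks, or 17.8% (Wilson interval 11.6 to 26.4%), were in more than 1 row, against 10.7% of the whole list. All 5 peaks in the KDM1A span were, at 41.8 kb in 3 rows, and neither of its flank peaks. Without KDM1A the share was 13.8% (8.26 to 22.2%). In NSD3 the 4 peaks past the 3′ end were in 2 rows each, and the 9 in the span in 1. KDM1B, SETD7 and GLYR1 had none. In 5 of the 10 loci (KDM1A, KDM5A, KDM5B, KMT2A and KMT2C) the peak closest to the 5′ end was in 2 rows. What a repeated row stands for is not given in the sources used here. When each row was counted, KDM1A became the densest locus, at 123 rows per Mb.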

How the data were processed

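One deposited peak list was used. The authors called its peaks with MACS, per the file header, with the H3K4me1 library of LSD2 siRNA cells as treatment and that of GL3 siRNA cells as control, after trimming and removal of duplicate reads. The settings were a read and fragment length of 128 bp, a p-value cutoff of 1e-05 and an enrichment factor of 32. The last is a setting of the call and not a fold measured for any peak. BWA and hg19 come from the submitters' processing notes. The list has 3 columns, chromosome, start and end, and its 180505 rows held 160601 distinct peaks. Peaks are printed on hg19, counted from 1.

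The gene spans were given with the choice of members, rounded to 1 kb. The members and lists were chosen with earlier results of these data known. Every member is named with its count and interval. Peaks named by position are the widest of a locus, those nearest its 5′ end and those in several rows, beside the longest peak-free stretch. Groups of peaks within a locus were picked out after their positions were seen. Strand came from the RefSeq promoter table (GRCh38.p14), or for NSD3 from general knowledge. Neighbouring genes came from the RefSeq gene table of the same build. There LUZP1 overlaps KDM1A and DDHD2 overlaps NSD3. By coordinates TAS2R45 is also listed over KDM5A, but whether that entry lies on the main sequence of chromosome 12 was not checked. Only the order of genes was used, so whether a flank peak lies within a neighbouring gene was not examined. Other genes of the pathway were not analysed here, since no hg19 annotation was used.

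Densities are peaks per Mb. Chromosome length ran from the first to the last peak without peak-free gaps over 1 Mb. Windows of each locus length were laid end to end along its chromosome, leaving out such gaps. Poisson intervals are exact and Wilson intervals are for shares, both at 95%. The counting steps were tested on simulated peaks placed independently of each other, with a denser KDM1B locus. That test does not show that the intervals hold for peaks that stand close together. Python 3.11.15, pandas 2.3.3, numpy 2.4.6 and scipy 1.17.1 were used.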

Additional observations from a re-analysis of the deposited data

How the results depend on the processing

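Alternatives were the gene span alone, a 50 kb extension, midpoints in place of overlap, every row counted, peaks within 1 kb merged, peaks at or above the list's median width, covered bases, the surrounding 1 Mb as background, and each locus left out. Keeping the wider peaks lowered the pooled density to 39.6 peaks per Mb and the median over loci to 41.5, by construction, and the ratio to the chromosomes was then 1.45. The number of loci with a peak near the 5′ end was 0 of 10 within 2 kb. Moving the ends by 1 kb, chosen after seeing the data, gave 7 and 8 within 5 kb. With each locus left out, the pooled density ran from 64.9 to 72.0, the median over loci from 65.9 to 66.04 and the ratio from 1.21 to 1.30. The ratio was 1.30 by covered bases, 1.24 against the surrounding 1 Mb and 1.18 for the spans alone. For the spans alone, 7 of 10 loci lay above their chromosomes. No interval was computed for these ratios, so an excess in the spans alone beyond counting error is not shown. Of 60 alternatives for single loci, 3 left the locus's interval: KDM1B (57.1) and GLYR1 (22.2) without extension, and KMT2C (23.4) for wider peaks. The other densities and ratios stayed within their interval, and the other medians within 1 SD. The counts of loci with a peak near the 5′ end have no interval or SD and were not judged that way. The unknown read depth limits every count, and a stretch with no peak is not shown to lack a gain. No stricter threshold by score was run, since the list has none. No library could be left out. No paired analysis was possible because no group holds more than 1 library, and no replicate number is given.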
